A study of Mus musculus with 45 samples.

Results

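The 5 libraries described here are the neural stem cell (NSC) samples of a brain injury experiment in mice, chosen by their labels from the 45 samples of the series. Libraries 1, 2 and 3 came from mice killed 4 h after lateral fluid percussion injury (LFPI), a model of traumatic brain injury (TBI), and libraries 4 and 6 from mice killed 4 h after sham treatment. All were Nestin-GFP mice of strain C57Bl6J, 6 to 9 weeks old, and each library held the cells of 1 animal. In LFPI a fluid pulse strikes the intact dura through an opening made in the skull 1 day earlier, and sham mice had the opening and the attachment but no pulse, so surgery is shared by both groups. From the dentate gyrus (DG) of the injured side, live cells negative for CD31, CD45, O1 and O4 and positive for both GLAST and GFP were sorted as NSCs, 300 per mouse, and made into libraries with a low input kit. GFP under the Nestin promoter reports promoter activity and does not mark NSCs alone, and an NSC library of sham mouse 5 was not analysed here. The question was which transcripts differ in NSCs within hours of an injury.

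NSCs of the adult DG are radial glia-like cells that share many transcripts with astrocytes, are mostly quiescent, and divide to give intermediate progenitor cells (IPCs) and then granule neurons. Injury of the brain releases signals of the interleukin-1 (IL-1) family and of damaged cells, which act through receptors that recruit the adaptor Myd88 and lead to NF-kB activity. Glia that respond to injury are known to raise intermediate filaments, protease inhibitors and acute phase proteins, and after TBI the division of DG precursors is known to change over days.

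The 5 libraries held 11925924 to 17784627 reads in genes, and depth separated the groups, with 15367572 to 17784627 reads after LFPI and 11925924 and 13081689 in sham. The file headings put LFPI 1 and 2 on lane 4, LFPI 3 on lane 3, sham 4 on lane 5 and sham 6 on lane 6, so lane and treatment cannot be told apart. Values are normalized counts, in which 1 read was worth 0.727 to 1.1. No library pair agreed within sampling noise, and Pearson's r of log2 values across genes lay between 0.870 and 0.900 for the 10 pairs, with LFPI and sham pairs mixed in that range. On the first principal component of the 500 most variable genes (30.4% of their variance) sham 4 lay at -42.0 and sham 6 at 18.3, while the LFPI libraries lay between, at -9.20 and 7.11, and beyond sham 6, at 25.8.

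Radial glia-like transcripts were abundant, but the sort genes did not all follow the gate. Slc1a3, which encodes the sorting antigen GLAST, had normalized counts of 67806, 40630 and 58101 after LFPI and 80201 and 36091 in sham. The 18 radial glia-like NSC markers, 17 of them tested, summed to 456569 to 785669, more than any other marker list. Aldoc and Apoe led them, with means of 168575 and 342931 over the 5 libraries. As NSCs share many transcripts with astrocytes, this sum does not separate the 2 cell types. Nes itself was low, at 307, 302 and 255 after LFPI and 333 in sham 6, and was at 0 in sham 4. Ptprc, which encodes CD45, was at 0 in 4 libraries and at 2.2 in sham 4. Pecam1, which encodes CD31, was present despite the negative gate, at 1709, 1698 and 1520 after LFPI and 1136 and 3495 in sham, far above Nes. The 16 microglial markers in the table summed to little, but to less in every LFPI library (1508, 1174 and 1343) than in sham (1921 and 1552). P2ry12, a purinergic receptor of microglia, was lower in all LFPI libraries (199, 52.4 and 43.8 against 289 and 227), and Mrc1 and Cd74 were at 0 in all 5 libraries. Among the other cell type markers, astrocyte sums were 139772 to 278116, IPC and neuroblast sums 33535 to 52326, oligodendroglial sums 11585 to 20750, neuronal sums 3738 to 5999 and choroid plexus sums 0 to 2899, and these 5 lists overlapped between groups.

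Both sham libraries stood apart in RNA of other cell types, and in different ways. In sham 6 the 20 endothelial markers summed to 181956, against 67877 to 112361 in the other 4 libraries, and the 14 pericyte and smooth muscle markers to 93073, against 22020 to 55595. Sham 6 also held 37846 normalized counts of 4 haemoglobin genes, which were looked at after their values were seen, against 17.6 to 140 elsewhere. In sham 4 the 12 fibroblast and leptomeningeal markers summed to 104004, and in sham 6 to 42504, both above the 28895, 19231 and 11037 of LFPI 1, 2 and 3. Ptgds, an abundant prostaglandin D synthase of the leptomeninges, made up most of it in sham, with 72785 and 29780 in sham and 16922, 4882 and 3502 after LFPI, and Dcn was lower after LFPI in the same way (1182, 1055 and 107 against 3798 and 1644). In such bulk libraries fewer cells of a type and less RNA per cell cannot be told apart.

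**Figure D1:**
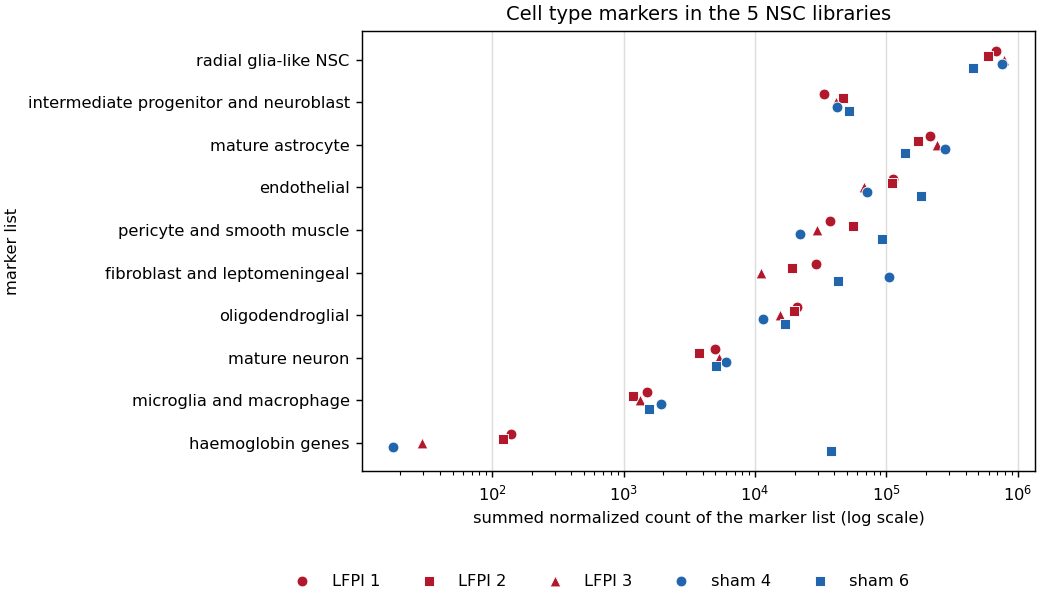
Summed normalized count of each marker list (log axis) in the 5 NSC libraries, with LFPI libraries in red and sham libraries in blue. Radial glia-like NSC markers, which do not separate NSCs from astrocytes, lie at 456569 or above in every library. Fibroblast markers are higher in both sham libraries than in any LFPI library, and sham 6 alone holds 37846 counts of haemoglobin genes.

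Of 50600 rows in the tables, 10090 genes had a value in all 5 libraries after CLEAR, the filter of the study that drops transcripts whose read coverage is too uneven to quantify, and 9790 of these were above 0 in at least 1 library and were tested. By limma on log2(normalized count + 1), 0 genes passed an adjusted p of 0.05 (0.0%), and 428 (4.37%) had an unadjusted p under 0.05. The lowest adjusted p was 0.169, for Timp1. The quasi-likelihood test of edgeR on the recovered reads also called 0 genes (0.0%), with 420 at an unadjusted p under 0.05 and a lowest adjusted p of 0.180. DESeq2 on the same reads called 23 genes, 15 higher after LFPI (0.153% of genes tested) and 8 lower (0.0817%). These are the 23 genes of the list that the study drew from these same libraries with DESeq2, so the match is not independent evidence. In other mice the study counted RNA of Slc5a3, Serpina3n and Timp1 by in situ hybridization. It reported all of them higher per NSC after LFPI, with similar trends per mouse that were not all significant. In 22 of the 23 the LFPI and sham libraries did not overlap and the unadjusted limma p was under 0.05. Over all genes tested, 931 (9.51%) had all LFPI libraries above both sham libraries and 972 (9.93%) all below, so lack of overlap was common. With 3 libraries against 2 an exact permutation test has 10 splits and cannot reach 0.05. Of these 10 splits, 1 puts all LFPI libraries above both sham libraries and 1 all below, which is near the shares seen. Lack of overlap alone thus shows no difference between the groups.

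**Figure D2:**
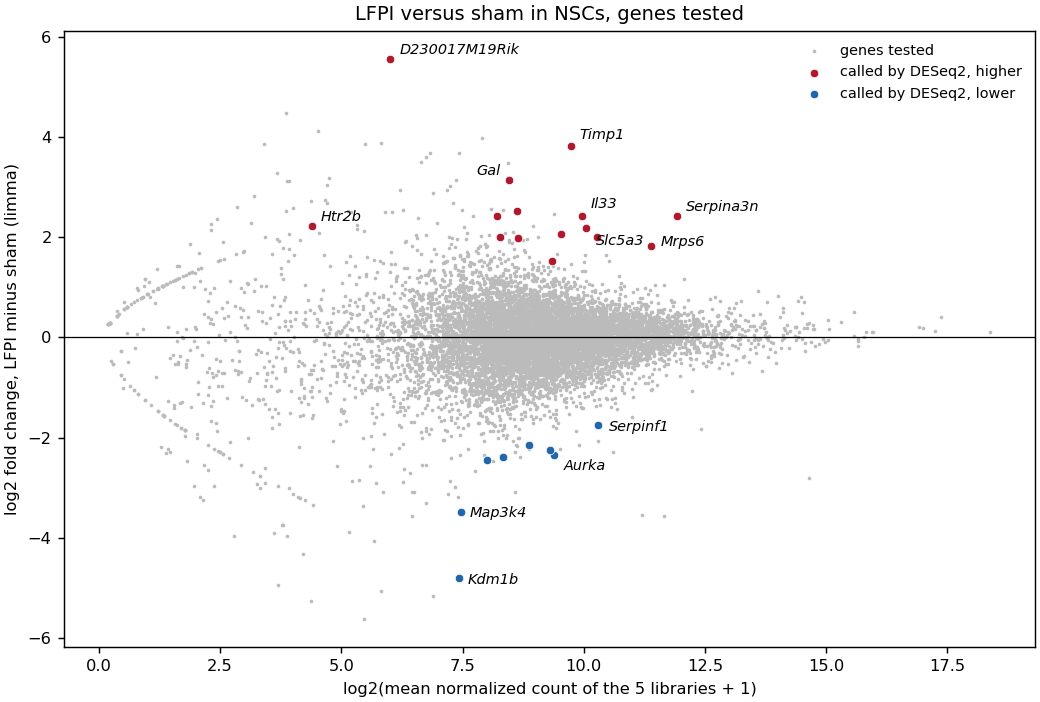
Log2 fold change of LFPI minus sham by limma (vertical axis) against the mean level of each of the 9790 genes tested (horizontal axis, log2), with the 15 genes that DESeq2 called higher in red and the 8 it called lower in blue. Timp1 lies at 3.82, and Kdm1b at -4.81 and Map3k4 at -3.48.

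The lowest p by limma and by DESeq2 belonged to Timp1, which encodes a secreted inhibitor of matrix metalloproteinases and lies on chrX:20870166-20874735 (GRCm38). Its normalized count was 896, 1975 and 1190 after LFPI and 73.7 and 109 in sham. Every LFPI library was far above both sham libraries, and the sham libraries were close to each other. The means differed 14.8-fold, with a log2 fold change of 3.82 ± 0.49 (standard error, n = 3 and 2), an adjusted limma p of 0.169 and an adjusted DESeq2 p of 1.17e-12. In a DESeq2 fit of NSC and IPC libraries together Timp1 was not called (adjusted p 0.678). That fit called 9 of the 18 genes of the study's list that were tested in it. DESeq2 called Timp1 with each library left out in turn, and the log2 fold change then lay between 3.51 and 4.10.

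A pair of neighbouring genes came next by limma. Slc5a3, which encodes the sodium-coupled transporter that brings the osmolyte myo-inositol into cells, had 1431, 1730 and 1475 after LFPI and 339 and 341 in sham. Mrps6, which encodes a protein of the small mitochondrial ribosomal subunit, had 2824, 4129 and 4391 after LFPI and 970 and 1131 in sham. Replicates of both were close, and the groups lay far apart. The means differed 4.54-fold for Slc5a3 (log2 fold change 2.18 ± 0.33, adjusted DESeq2 p 5.00e-07) and 3.60-fold for Mrps6 (1.83 ± 0.29, adjusted DESeq2 p 4.49e-05), while the adjusted limma p was 0.336 for each. Without any single library, the value of Slc5a3 stayed between 2.09 and 2.23. The genes share a strand and a first exon on chromosome 16: Mrps6 spans chr16:92058270-92112227 and Slc5a3 chr16:92058322-92087473, and 19.9% of the exonic bases of Mrps6, but 1.46% of those of Slc5a3, are shared with other genes. How reads of the shared part were divided is not given in the sources used here, so the values of Mrps6 are less certain. Of 11 osmotic response genes tested Slc5a3 was the only one higher in all LFPI libraries, Slc38a2 was lower in all of them, and the 10 genes other than Slc5a3 had log2 fold changes of -0.91 to 0.42. Aqp4, the water channel of astrocyte endfeet, had 7591, 7498 and 10353 against 9098 and 4301.

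Serpina3n (chr12:104406729-104414329) encodes a secreted serine protease inhibitor that is among the best known marks of reactive astrocytes in the mouse. Its normalized count was 2845, 10185 and 4465 after LFPI and 904 and 994 in sham. All LFPI libraries were above both sham libraries, and LFPI 2 was the highest of them. The log2 fold change was 2.41 ± 0.46, with an adjusted limma p of 0.540 and an adjusted DESeq2 p of 6.57e-05.

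The bases before the start of these genes are shown because Slc5a3 and Mrps6 start 14 bases apart in RefSeq, so that 1 stretch lies before both, and because Timp1 and Serpina3n, like both of these, were called by DESeq2 in all 5 fits that left out a library. Each stretch runs 5′ to 3′ on the + strand, from RefSeq on GRCm38.p6, and ends before the first annotated exon base: chrX:20869916-20870165 for Timp1, chr16:92058072-92058269 for Slc5a3 and Mrps6, and chr12:104406458-104406707 for Serpina3n. Capitals mark matches on either strand to TGGAAA, the core of the tonicity element.
Timp1: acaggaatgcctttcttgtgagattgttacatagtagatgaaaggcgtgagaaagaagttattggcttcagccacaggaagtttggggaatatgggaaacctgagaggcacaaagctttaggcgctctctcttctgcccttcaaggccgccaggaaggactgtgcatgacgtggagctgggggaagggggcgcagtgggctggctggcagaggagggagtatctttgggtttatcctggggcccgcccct
Slc5a3 and Mrps6: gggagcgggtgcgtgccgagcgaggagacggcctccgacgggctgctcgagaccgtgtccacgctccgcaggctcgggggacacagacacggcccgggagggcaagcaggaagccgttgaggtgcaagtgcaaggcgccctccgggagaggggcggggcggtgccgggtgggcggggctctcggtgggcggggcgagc
Serpina3n: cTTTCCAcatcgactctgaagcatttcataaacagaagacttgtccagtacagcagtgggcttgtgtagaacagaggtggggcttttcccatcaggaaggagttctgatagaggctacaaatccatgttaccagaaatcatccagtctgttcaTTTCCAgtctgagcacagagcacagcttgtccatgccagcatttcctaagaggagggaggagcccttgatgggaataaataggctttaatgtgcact

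The stretch before Slc5a3 and Mrps6 was 75.8% G and C, against 54.4% for Timp1 and 46.4% for Serpina3n. In windows of 300 bases around the start, from 250 before it to 50 after, the AP-1 motif TGANTCA was found in 7.81% of the 32851 RefSeq promoters of the mouse, the STAT motif TTCNNNGAA in 8.30%, an NF-kB motif of 10 letters in 0.411%, the cyclic AMP response element TGACGTCA in 1.79% and TGGAAA in 21.4%, counting both strands. Of the 23 genes, 20 had such a window. Among the 13 of these that were higher after LFPI, the AP-1 motif was in the window of Htr2b, the STAT motif in those of Myd88 and Nars2, and TGGAAA in those of Fam171a1 and Serpina3n. The NF-kB motif and the cyclic AMP response element were in none of the 20, and no motif was in the window of the 7 genes that were lower. These are matches of letters in a short window, and binding was not measured.

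Of the IL-1, Toll-like receptor and NF-kB list, 16 genes were tested and DESeq2 called 4, all higher after LFPI, while limma called 0. In 6 of the 16 (37.5%) every LFPI library was above both sham libraries, against 9.51% of all genes, and in 0 every one was below. The 4 called genes are among the 6, and the list was chosen with the study's genes known, so the share partly reflects that choice. Il33, an alarmin of the IL-1 family, had 1060, 2539 and 843 after LFPI and 376 and 157 in sham. Il1rap, the co-receptor that both IL-1 and IL-33 receptors need, had 719, 552 and 453 against 53.9 and 175. Myd88, the adaptor below these receptors, had 801, 966 and 855 against 287 and 318. None of these overlapped between groups. Their log2 fold changes were 2.43 ± 0.56, 2.52 ± 0.62 and 1.53 ± 0.38, with adjusted DESeq2 p of 0.00763, 0.0430 and 0.0352 and adjusted limma p of 0.867, 0.978 and 0.978. Arid5a, an RNA-binding protein known to stabilise Il6 mRNA, had 1253, 1831 and 2214 after LFPI and 539 and 340 in sham (2.00 ± 0.38, adjusted DESeq2 p 0.000959).

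The rest of the list differed less. Il18, another cytokine of the IL-1 family, had 2040, 2016 and 2570 after LFPI and 1186 and 915 in sham, which did not overlap (1.07 ± 0.29, adjusted DESeq2 p 0.177). Il1r1, the IL-1 receptor itself, was at 154, 232 and 294 against 136 and 110, and Nfkbia, an inhibitor and target of NF-kB, at 2646, 3434 and 4721 against 4544 and 4876. The median log2 fold change of the 16 was 0.42, and 0.14 to 0.69 with any 1 library left out. DESeq2 called Arid5a in all 5 fits that left out a library, Il33 in 3, Il1rap in 1 and Myd88 in 0. Of the IL-6 and STAT3 list, 5 of 12 genes tested had positive and 7 negative log2 fold changes. In 2 (16.7%, against 9.93% of all genes) all LFPI libraries were below both sham libraries. Of these, Il6st, which encodes the shared receptor subunit gp130, was at 650, 599 and 916 against 1268 and 2003. In 1 (8.33%, against 9.51% of all genes) all were above, Stat3, by a narrow margin (4496, 3987 and 3937 against 3259 and 3936).

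Genes of reactive glia were mostly higher after LFPI. Of 20 tested, 13 had positive log2 fold changes, and in 8 (40.0%) all LFPI libraries were above both sham libraries, against 9.51% of all genes. DESeq2 called 2, Timp1 and Serpina3n, and limma 0. These 2 genes are among the 8, and the list was chosen with the study's genes known, so the share partly reflects that choice. Gfap, the intermediate filament of astrocytes and radial glia, was at 31165, 27573 and 25704 after LFPI and 19398 and 15456 in sham, a small and even difference (0.70 ± 0.23, adjusted DESeq2 p 0.557). Osmr, the receptor of oncostatin M, was at 1668, 2686 and 2154 against 661 and 1250, and S100a10, the partner of annexin A2, at 1074, 1620 and 1242 against 615 and 432. Ptx3, a secreted pentraxin, just missed the DESeq2 threshold (232, 496 and 705 against 45.1 and 119, log2 fold change 2.55 ± 0.70, adjusted p 0.0553). The list's median was 0.81, beside -2.71e-05 for all genes tested, and depended on the sham libraries: it was 1.13 without sham 6 and -0.000102 without sham 4.

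**Figure D3:**
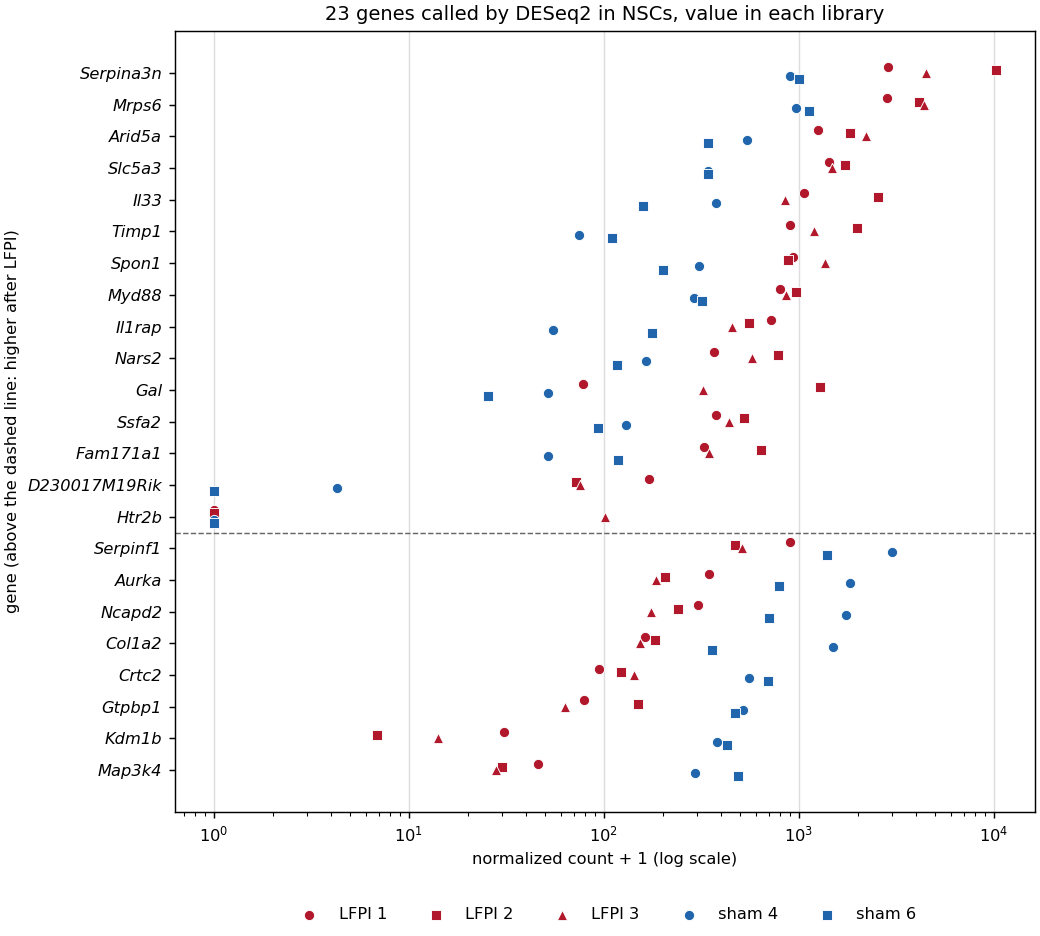
Normalized count plus 1 (log axis) of the 23 genes called by DESeq2 in each of the 5 NSC libraries, red for LFPI and blue for sham, with genes higher after LFPI above the dashed line. The colours separate in every gene but Htr2b, which has counts in LFPI 3 alone.

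A further 2 secreted products were called higher by DESeq2. Spon1, which encodes the matrix protein F-spondin, was at 927, 881 and 1355 after LFPI and 306 and 200 in sham (2.06 ± 0.42, adjusted DESeq2 p 0.00139). Gal, the precursor of the neuropeptide galanin, was at 77.1, 1276 and 323 against 50.6 and 24.3. Its LFPI libraries were far apart, and LFPI 1 was close to sham 4 (3.14 ± 1.06, adjusted DESeq2 p 0.0107). Bdnf, the neurotrophin, was at 324, 215 and 543 against 86.9 and 103, and was not called (adjusted DESeq2 p 0.218). Nars2, the mitochondrial asparaginyl-tRNA synthetase, was at 366, 782 and 570 against 164 and 115. Among 11 mitochondrial aminoacyl-tRNA synthetases tested, 6 had positive and 5 negative log2 fold changes, and among 29 small mitochondrial ribosomal proteins 22 were positive, with a median of 0.21. Fam171a1 (326, 640 and 345 against 50.6 and 117) and Ssfa2 (375, 519 and 436 against 129 and 92.6) were separate too. DESeq2 called all 3 (adjusted p 0.0454, 0.0499 and 0.0421), but none in more than 1 of the 5 fits without a library.

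The last pair of called genes rested on few reads. D230017M19Rik, a long intergenic non-coding RNA in GENCODE, was at 168, 70.5 and 74.5 after LFPI and 3.30 and 0 in sham, from 402 reads against 3. The ratio per read was 66.2, with an exact 95% interval of 22.5 to 323 that covers counting error only. Htr2b, a serotonin receptor, had all of its 137 reads in LFPI 3, at 100, and was at 0 in the other 4 libraries. Its groups overlap, its limma p was 0.264 before adjustment, and without LFPI 3 no difference was left, so the adjusted DESeq2 p of 6.42e-06 reflects 1 library.

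Of the 8 genes that DESeq2 called lower after LFPI, 2 act in mitosis. Aurka, the kinase of the spindle poles, was at 346, 204 and 184 after LFPI and 1829 and 791 in sham (log2 fold change -2.35 ± 0.52, adjusted DESeq2 p 0.00157). Ncapd2, a subunit of condensin I, was at 302, 240 and 172 against 1746 and 702 (-2.25 ± 0.53, adjusted DESeq2 p 0.00269). In both, sham 4 was well above sham 6. DESeq2 lost both calls without sham 4, with an adjusted p of 0.490 for Aurka and 0.583 for Ncapd2. Of 6 condensin subunits tested, 6 had negative log2 fold changes, with a median of -1.02, and 2 of them (33.3%, against 9.93% of all genes) were lower without overlap, Ncapd2 and Smc4 (226, 268 and 478 against 930 and 486). The list was chosen with the call of Ncapd2 known, so that share partly reflects the choice.

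Cell cycle genes were mostly lower after LFPI. Of 29 genes tested 24 had negative log2 fold changes, and in 12 (41.4%) all LFPI libraries were below both sham libraries, against 9.93% of all genes, while 1 was above. The median log2 fold change was -0.72 and stayed between -0.96 and -0.49 with any 1 library left out. Limma called 0 of the 29 and DESeq2 1, Aurka. Aurka is 1 of the 12, and the list was chosen with its call known. Top2a, the topoisomerase of dividing cells, was at 654, 782 and 735 after LFPI and 2462 and 1417 in sham, and just missed the DESeq2 threshold (-1.37 ± 0.35, adjusted p 0.0564). Tpx2, an activator of Aurka on the spindle, was at 268, 805 and 905 against 1531 and 1538, and Cdca8, a subunit of the chromosomal passenger complex, at 622, 434 and 645 against 1297 and 1276. The D-type cyclin Ccnd2 was at 4210, 5431 and 8725 against 8169 and 6506, which overlap. The IPC and neuroblast markers, which mark descendants of NSCs and not dividing ones alone, overlapped in sum. They were at 33535, 46519 and 41476 after LFPI and 41795 and 52326 in sham, and the part of such cells in the cell cycle values was not tested.

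Kdm1b and Map3k4 had the largest negative folds among the called genes. Kdm1b, a demethylase of lysine 4 of histone H3, was at 29.8, 5.82 and 13.1 after LFPI and 379 and 425 in sham. Map3k4, a kinase at the head of stress-activated MAP kinase cascades, was at 44.8, 29.1 and 27.0 against 294 and 485. The sham means were 24.7-fold and 11.6-fold higher, with log2 fold changes of -4.81 ± 0.89 and -3.48 ± 0.73 and adjusted DESeq2 p of 7.98e-06 and 7.61e-05. DESeq2 called Kdm1b with each library left out and Map3k4 with all but sham 6. At its end Kdm1b shares 9.19% of its exonic bases with Dek on the opposite strand, and the counting did not use strand, so reads of the 2 genes cannot be told apart there. The same holds for 11.3% of the exonic bases of Myd88, 11.8% of Htr2b, 6.35% of Gtpbp1, 4.86% of Il1rap, 4.08% of Nars2 and 3.28% of D230017M19Rik. Of 9 histone demethylases tested Kdm1b alone was lower in all LFPI libraries (11.1%, against 9.93% of all genes), and of 7 genes of the stress MAP kinase cascade 2 were (28.6%), Map3k4 and Mapk14 (Mapk14 149, 155 and 70.8 against 321 and 288). Both lists were chosen with the calls of Kdm1b and Map3k4 known, so these shares partly reflect the choice.

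Crtc2, a coactivator of the cyclic AMP responsive factor CREB, was at 93.7, 121 and 141 after LFPI and 554 and 693 in sham (-2.39 ± 0.55, adjusted DESeq2 p 0.00139). Gtpbp1, a GTP-binding protein, was at 77.9, 149 and 62.1 against 513 and 470 (-2.44 ± 0.64, adjusted DESeq2 p 0.0421). Neither overlapped between groups. DESeq2 lost the call of Crtc2 without either sham library (adjusted p 0.110 without sham 4 and 0.248 without sham 6) and called Gtpbp1 in 1 of the 5 fits that left out a library. Immediate early genes, several of which CREB controls, were not higher in NSCs at 4 h. Of 15 tested, 14 had negative log2 fold changes (10 without sham 6), with a median of -0.55. In 4 (26.7%) all LFPI libraries were below both sham libraries, against 9.93% of all genes. Fos was at 7172, 5631 and 2885 after LFPI and 5068 and 4720 in sham. Dusp1, a phosphatase of MAP kinases, was at 4760, 2372 and 3088 against 6151 and 7680 (-1.07 ± 0.31, adjusted DESeq2 p 0.386). In whole DG, Fos and Dusp1 had log2 fold changes of 1.41 ± 0.40 and 0.14 ± 0.21, and neither was called there.

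Other stress and response lists were also measured. Of 13 heat shock genes tested 9 had positive log2 fold changes (median 0.18), of 11 genes of the unfolded protein and amino acid response 6 (median 6.61e-05), of 15 oxidative stress and metal genes 9 (median 0.14) and of 12 p53 targets 7 (median 0.18). Hypoxia and glycolysis genes were positive in 7 of 9 (median 0.48), led in level by Ldha, the lactate dehydrogenase subunit (8410, 7963 and 12104 against 6436 and 6975). Of 17 metalloproteinases and their inhibitors other than Timp1, 11 were positive (median 0.44), among them Adamts4, an aggrecan-cleaving enzyme (196, 113 and 373 against 88.0 and 10.3), and the median was 0.03 without sham 6. Values were negative in 10 of 19 genes of MHC class I and interferon (median -0.16), in 9 of 13 genes of Notch, BMP and Id signalling (median -0.16) and in 2 of 4 cytokines and chemokines (median -0.43), and CREB coactivators and partners had 4 positive and 3 negative values (median 0.02). Of these 10 lists limma and DESeq2 called 0 genes, except that DESeq2 called Crtc2 in the last.

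The remaining 2 lower genes are matrix genes. Col1a2, a chain of type I collagen, was at 162, 183 and 152 after LFPI and 1496 and 359 in sham. Serpinf1, a secreted antiangiogenic serpin, was at 903, 468 and 511 against 2987 and 1384. In both, sham 4, the library with the most fibroblast marker RNA, was highest. Adjusted DESeq2 p was 0.0214 and 0.0430, and both calls were lost without sham 4, with 0.995 and 0.704. The log2 fold change of Col1a2 was then -1.12, against -2.15 with it. The fibroblast markers moved with these genes: of 6 tested, 5 had negative log2 fold changes, with a median of -1.84. Their part in the values of Col1a2 and Serpinf1 was not tested. Of 11 collagens and matrix genes tested, 8 were negative, and the median of -0.63 was -0.01 without sham 6.

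**Figure D4:**
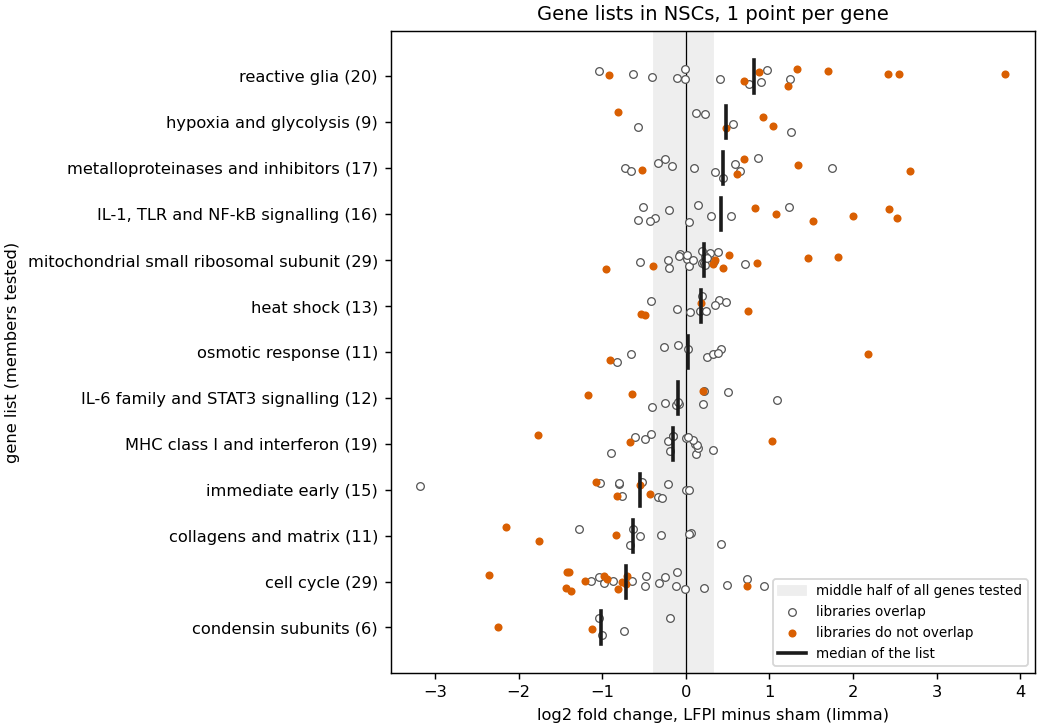
Log2 fold change of LFPI minus sham by limma for each gene tested in 13 gene lists, with orange points where LFPI and sham libraries do not overlap, a bar at the median of the list and a grey band between the quartiles of all genes tested. Of the 13 lists shown, reactive glia have the highest median, 0.81, and cell cycle genes and condensin subunits the lowest, -0.72 and -1.02.

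Untreated NSCs of the same series give a further level to set beside these, although their table was normalized on its own, from other mice, so values are given as CPM, the counts per 1e+06 reads in genes, and were not compared by a test. The untreated libraries also differed in marker content: Slc1a3 was at 778 ± 261 CPM in them, against 4533 in sham and 4333 after LFPI, and Gfap at 93.3 ± 31.3, against 1371 and 2200, while the endothelial gene Bsg was at 10752 ± 1194, against 2914 and 2515. The part of this in the values that follow was not tested. Serpina3n was at 10.6 ± 7.35 CPM in untreated NSCs (SD, n = 3 mice), at 75.1 ± 8.72 in sham (n = 2) and at 457 ± 306 after LFPI (n = 3). Timp1 was at 0.484 ± 0.839, 7.28 ± 2.35 and 106 ± 44.4 CPM. Both were thus lowest in untreated NSCs, as was Il33 at 10.7 CPM against 20.8 and 116. Slc5a3 was at 23.04 ± 10.8, 26.9 ± 1.47 and 121 ± 13.5 CPM, so that untreated and sham lay within their spread. Of the 15 genes called higher, 4 were lowest in untreated NSCs (Timp1, Serpina3n, Il33 and Slc5a3), and 11 lay between sham and LFPI or, for Htr2b, at 0 like sham. On a log scale the untreated level was nearer to LFPI than to sham in 7 of the 15 and nearer to sham in 8. Among the 7 was Spon1, at 46.8 ± 13.0 CPM untreated, 19.8 ± 4.92 in sham and 82.2 ± 19.3 after LFPI.

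Some genes called lower had an untreated level nearer to LFPI than to sham on a log scale. Serpinf1 was at 21.8 ± 20.2 CPM untreated, 170.5 ± 81.1 in sham and 49.0 ± 18.9 after LFPI. Ncapd2 was at 27.0 ± 7.18, 95.2 ± 53.6 and 18.6 ± 5.21, and Col1a2 at 14.4 ± 7.58, 71.7 ± 59.9 and 12.9 ± 1.36. The sham libraries differed among themselves, with Col1a2 at 114 CPM in sham 4 and 29.4 in sham 6 and Ncapd2 at 133 and 57.3. The other 5 of the 8 were nearer to sham, among them Aurka at 47.5 ± 7.37 CPM, against 102 ± 52.9 in sham and 19.1 ± 6.99 after LFPI, and Kdm1b at 16.2 ± 14.03, against 31.8 ± 4.09 and 1.27 ± 0.968. The untreated mice differed widely in Kdm1b, at 29.5, 1.51 and 17.5 CPM, and the lowest was close to the LFPI mean.

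IPCs sorted from the same mice as GFP-positive, GLAST-negative cells were compared next, with sham mouse 5 added. RNA of Slc1a3, the GLAST gene, was abundant in them too, with means of 44303 after LFPI and 44792 in sham. In NSCs these means were 55512 and 58146. Aldoc was also close, at 175875 and 128455 in IPCs against 186349 and 141914. Sox11, an IPC and neuroblast marker, was higher in IPCs, at 14115 and 15484 against 8496 and 9555. How far the sorted populations overlap was not tested. Depth again separated the groups, at 16351321 to 21598519 reads after LFPI and 9604877 to 12804286 in sham. In IPCs 8510 genes were tested, and DESeq2 called 18 and limma 0. Of the 23 genes 17 were tested in IPCs, and DESeq2 called 1, Slc5a3, at 785, 1692 and 1151 after LFPI and 269, 455 and 364 in sham (log2 fold change 1.70 ± 0.41, adjusted p 0.0368). Myd88 was as separate, at 451, 355 and 536 against 133, 134 and 156 (1.64 ± 0.49), but was not called (adjusted DESeq2 p 0.137). Timp1 in IPCs was uneven, at 125, 2014 and 182 against 48.7, 0 and 24.3. Serpina3n had no such difference, at 1692, 2938 and 2367 against 2714, 1620 and 1220 (0.38 ± 0.34).

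The difference between the NSC and the IPC response was tested as an interaction over 11 libraries and 8080 genes, and 0 genes passed by limma (0.0%), with 231 at an unadjusted p under 0.05 and a lowest adjusted p of 0.999. edgeR called 0, with 237 at an unadjusted p under 0.05, and DESeq2 1, Gm11716. No response is thus shown to be particular to NSCs. Of the 18 of the 23 genes tested in it, the 5 with the lowest unadjusted interaction p were Ncapd2 (log2 difference -3.21 ± 0.76, p 0.000986), Kdm1b (-7.75 ± 1.94, p 0.00156), Ssfa2 (2.43 ± 0.74, p 0.00593), Serpina3n (2.04 ± 0.63, p 0.00662) and Spon1 (2.07 ± 0.66, p 0.00778), from the limma fit. Slc5a3 had a log2 difference of 0.48 ± 0.52. Kdm1b in IPCs went the other way on average, at 158, 223 and 199 after LFPI and 2.44, 359 and 11.7 in sham, with the groups overlapping.

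In whole DG, from other mice and with another library kit, 29053 genes were tested, of which limma called 3 and DESeq2 664. All 49922 genes had a value after CLEAR in each whole DG library, unlike in NSCs, so the gene sets tested differ. The study reported fewer differing genes in whole DG, and none of them shared with NSCs or IPCs. The reason for the difference from the calls given here was not tested. Of the 23 genes DESeq2 called 3 there, Slc5a3 (log2 fold change 0.79 ± 0.22), Serpina3n (0.97 ± 0.26) and Il33 (0.94 ± 0.18), each higher after LFPI, and limma 0. Slc5a3 was at 620, 1308 and 991 against 594, 579 and 455, and Il33 at 520, 384 and 520 against 300, 237 and 208, and neither overlapped. Serpina3n, at 1977, 3382 and 3841 against 2128, 1010 and 1596, did. Kdm1b, Crtc2 and Gtpbp1 had log2 fold changes of 0.04 ± 0.17, -0.12 ± 0.20 and 0.06 ± 0.14 in whole DG. The direction was that of NSCs in 15 of the 23.

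**Figure D5:**
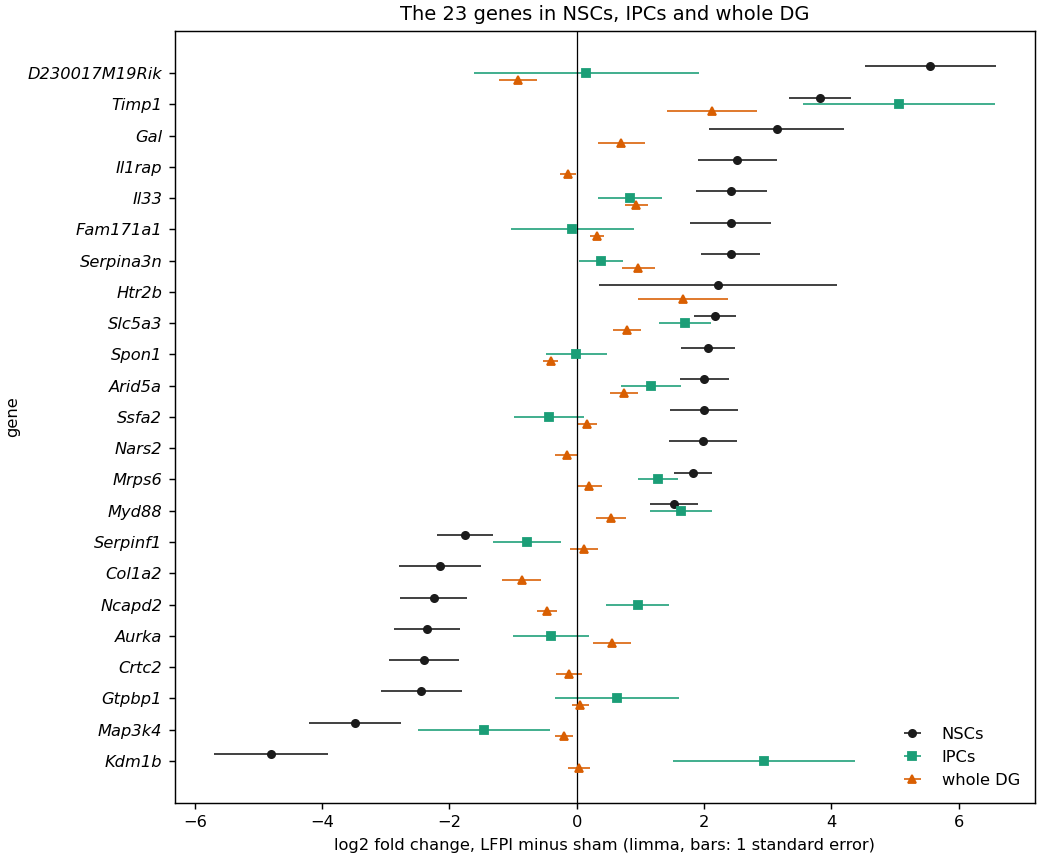
Log2 fold change of LFPI minus sham by limma (bars, 1 standard error) of the 23 genes, with circles for NSCs, squares for IPCs and triangles for whole DG, with no IPC symbol where the gene was not tested there. Slc5a3, Arid5a and Myd88 are above 0 in all 3, while Kdm1b has its circle at -4.81, its square at 2.94 and its triangle at 0.04.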

How the data were processed

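Normalized values of 5 NSC libraries were analysed, and IPC, whole DG and untreated NSC libraries were set beside them. Per the study's methods and the submitters' notes, the authors aligned reads with HISAT2 (2.0.6) after CASAVA (1.8.2), counted them per gene without strand using Subread, and divided the counts by DESeq2 size factors. The methods name the mouse build GRCm38, while the notes name GRCh38. The deposited signal is thus a normalized count, once for all genes and once after the CLEAR filter, and the 2 tables did not differ by over 1e-06 in any of 441707 shared values. Of all values, 100% became whole reads within 0.05 when divided by the value of 1 read. The unfiltered table has 1 column with no sample label, which was not used. Rows whose symbol repeats (678 rows, 310 symbols, Itgam among them) were left out, so that 49922 genes remained.

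The main test was limma (3.58.1, R 4.3.3) on log2(normalized count + 1) with a trend. Fold changes on that scale can understate those of low genes. Where a library is near 0 they can also be larger than those of DESeq2, as for Nes (log2 fold change 3.98 against 0.78). Calls were made at a Benjamini-Hochberg adjusted p of 0.05. The recovered reads were tested with edgeR (4.0.16) and DESeq2 (1.42.0) as alternatives, since the values turned out to be counts divided by size factors. Folds of means are ratios of mean normalized counts. P-values measure the spread between mice of 1 experiment. Scripts were tested on simulated data. Genes named were those of the study's NSC list, the largest differences without overlap and a mean of 100 in the higher group, the called or most abundant members of each list, the sort genes and the lowest interaction p. Bdnf, Osmr, S100a10, Ptx3, Il18, Il1r1, Nfkbia, Il6st, Top2a, Tpx2, Cdca8, Smc4, Mapk14, Slc38a2 and Dcn were chosen after their values were seen. The members and lists were chosen with earlier results of these data known, and the study chose its list on these libraries. Mice pair NSC and IPC libraries of the same animal, and deviations from group means correlated at r of 0.0441 to 0.169 over 8080 genes in the 5 mice with both. Within NSCs no pairing exists. Promoter sequences came from RefSeq on GRCm38.p6 and gene positions from GENCODE on GRCm38, which matched 20 and 22 of the 23 genes.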

Additional observations from a re-analysis of the deposited data

How the results depend on the processing

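The count of genes called in NSCs rested on the tool. Limma called 0 with a pseudocount of 0.5 or 10, other filters, rescaled or thinned libraries and 1 fit with IPCs, but 6 when genes at 0 in all 5 libraries were kept and 1 (Lrr1) without the trend, and DESeq2 called 23. With 1 library left out limma called 0 to 20. The 20, without sham 6, were lower and at 0 in all 3 LFPI libraries, and with a sham library left out the lone one is assumed to vary like the others. Alternatives chosen after seeing the data gave DESeq2 counts of 24 on reads thinned to 11925924 per library (22 of the 23 among them), 15 at a mean of at least 100 and 13 in 1 fit with IPCs, and 18 to 74 with 1 library left out (60, 18 and 25 without LFPI 1, 2 and 3, 42 and 74 without sham 4 and 6). Of the 23 genes, DESeq2 called Arid5a, Kdm1b, Mrps6, Serpina3n, Slc5a3 and Timp1 in all 5 of those fits and Myd88 and Ssfa2 in 0. The log2 fold change of Htr2b ran from 0, without LFPI 3, to 3.33 with 1 library left out. For the difference between NSCs and IPCs, DESeq2 called 1, and leaving out a mouse gave limma counts of 0 to 1 (Egr2 without sham 4, Kdm1b without sham 5). With the mouse as a replicate block, which drops sham mouse 5, limma called 0, with 339 genes at an unadjusted p under 0.05 against 231, and the log2 difference of Timp1 was 0.48 in place of -1.24, as it was without sham 5, and ran from -2.62 to 0.48 with 1 mouse left out. The cause was not tested. With 3 libraries against 2, lanes and depth that follow the groups, and sham libraries that differ in RNA of other cell types, differences of low genes in particular are imprecise.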

Other observations

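The largest differences without overlap included genes that no list held, none of them called by limma, edgeR or DESeq2. Rdh10, which makes retinal for retinoic acid synthesis, was at 375, 195 and 649 normalized counts after LFPI and 34.1 and 107 in sham (log2 fold change 2.56 ± 0.76). Bcdin3d, an RNA methyltransferase, was at 249, 177 and 332 against 14.3 and 117, Gm2011 at 163, 161 and 172 against 90.2 and 4.68, and Lhfpl3 at 973, 1215 and 568 against 46.2 and 538. On the lower side, Zbtb46, a zinc finger repressor, was at 275, 14.5 and 142 after LFPI and 603 and 870 in sham. Slc16a11, a monocarboxylate transporter family member, was at 12.4, 29.8 and 81.1 against 418 and 191, and Bcl2l2, an inhibitor of cell death, at 36.5, 0 and 0 against 72.6 and 169. Prr12, Zfhx2os, Pidd1, Fkbp1b and Cenpp were also lower without overlap, the last 3 with at least 1 LFPI library at or under 0.730. In most of these genes 1 group held a library near 0.

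Among all genes the lowest unadjusted interaction p between NSCs and IPCs belonged to Gm12279 (29.8, 24.7 and 13.1 against 0 and 0 in NSCs, log2 difference 7.48 ± 1.44, limma p 0.000184), with adjusted p of 0.999 or above for every gene. Jam3, a junctional adhesion molecule, was at 1102, 830 and 695 after LFPI and 700 and 481 in sham NSCs, and at 380 to 590 after LFPI and 1132 to 1443 in sham IPCs (log2 difference 1.91 ± 0.48, limma p 0.00150). Mir6905 was at 0 in all 3 LFPI libraries of NSCs and at 1.0995 and 17.8 in sham.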
